A study of Mus musculus with 12 samples.

Results

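Peaks of histone H3 acetylated at lysine 9 (H3K9ac) were examined at 10 mouse genes whose products set, remove or act on histone acetylation, out of 21911 protein-coding gene symbols with an annotated start. The genes were the corepressors Sin3a and Ncor1, the deacetylases Hdac1, Hdac2, Hdac3 and Sirt6, and the acetyltransferases Kat2a, Kat2b, Ep300 and Crebbp. A peak was assigned to a gene when it overlapped the gene body or the 5 kb either side of its start in the GENCODE M21 annotation of mm10. By this rule 127 peaks belonged to the 10 genes, with 25 and 15 in the replicates of B6, 24 and 21 in those of MSM, 26 for F1 BM and 16 for F1 MB. Sin3a was chosen on its measured H3K9ac, because its acetylated domain had the largest gap between the strains on the upstream side in favour of MSM, and the other 9 genes were named by their function.

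Chromatin immunoprecipitation and sequencing was performed on adult mouse liver, and 1 peak list per library was available for 6 H3K9ac libraries. There were 2 libraries of the inbred strain C57BL/6J (B6), which is the strain of the reference genome, and 2 of MSM/Ms (MSM), an inbred strain derived from wild Japanese mice. There was 1 library from a first-generation cross with a B6 dam and an MSM sire (F1 BM) and 1 from the reverse cross, with the dam from MSM and the sire from B6 (F1 MB). Values of a strain are given below as a pair, replicate 1 first. All livers were fixed with formaldehyde for 15 min without any other treatment given in the labels, all were precipitated with the same antibody (ab4441), and the labels gave no age beyond adult. The 6 input samples of the series were not analysed here.

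Lysine acetyltransferases add acetyl groups to histone tails and deacetylases take them off, and the balance of both sets the acetylation of a promoter. Most of these enzymes do not bind DNA themselves but are held in large complexes, such as the SIN3 complex built on Sin3a with Hdac1 and Hdac2, or the NCoR complex built on Ncor1 with Hdac3. In the liver, Ncor1 and Hdac3 are known for the repression of lipid genes, and Ep300 and Crebbp for the response of glucose genes to fasting.

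The 6 lists differed in length, and this bears on every comparison below. They held 22968 and 11619 peaks in the B6 pair, 17310 and 17584 in the MSM pair, 20173 for F1 BM and 13235 for F1 MB, so that both extremes were B6 libraries. Between 27.9% and 44.2% of all gene starts had a peak within 1 kb. The deposited lists give a fold enrichment for each peak, which is a linear ratio over the background of that library, and no read counts, so depth was not used here and a missing peak cannot be told apart from one too weak to be called. Of 6 hepatocyte markers, 5 had a promoter peak in every library and Hnf4a had none at the start used, while of 13 markers of leukocytes, endothelium, stellate cells and bile duct between 0 and 3 had one per library, with no peak in any library at Adgre1, Clec4f, Cd5l, Pecam1, Lrat, Des, Reln, Krt19 and Epcam. In whole liver, a change in the share of cells of one type cannot be told apart from a change in acetylation per cell.

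The sequences in front of 4 starts and the interval upstream of Sin3a are shown because the results turn on these places. Sin3a was chosen on its upstream gap between the strains, Ep300 had the strongest promoter peak, and Crebbp and Kat2a had a promoter peak in the fewest libraries. They are printed 5′ to 3′ on the strand of the gene from the RefSeq sequence of GRCm38.p6 (mm10), and each promoter runs from 250 bases before the GENCODE start to the last base before it. Capitals mark matches to 6 short motifs on either strand, namely the GC box GGGCGG, the ETS core CCGGAA, the NF-Y box CCAAT, the NRF1 core GCGCATGC, the TATA box TATAAA and the E-box CACGTG.
Sin3a promoter, chr9:57071790-57072039, plus strand: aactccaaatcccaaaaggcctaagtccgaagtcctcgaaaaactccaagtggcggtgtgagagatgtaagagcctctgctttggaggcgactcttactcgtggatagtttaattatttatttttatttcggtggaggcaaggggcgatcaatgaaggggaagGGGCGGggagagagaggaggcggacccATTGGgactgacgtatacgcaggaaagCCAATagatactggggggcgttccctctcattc
Sin3a upstream interval, chr9:57068729-57068996, plus strand: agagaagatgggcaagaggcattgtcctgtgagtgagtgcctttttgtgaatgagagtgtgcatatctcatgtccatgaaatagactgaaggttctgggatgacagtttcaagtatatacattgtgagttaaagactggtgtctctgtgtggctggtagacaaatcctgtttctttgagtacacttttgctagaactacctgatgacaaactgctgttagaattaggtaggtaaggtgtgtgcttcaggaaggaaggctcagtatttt
Ep300 promoter, chr15:81585101-81585350, plus strand: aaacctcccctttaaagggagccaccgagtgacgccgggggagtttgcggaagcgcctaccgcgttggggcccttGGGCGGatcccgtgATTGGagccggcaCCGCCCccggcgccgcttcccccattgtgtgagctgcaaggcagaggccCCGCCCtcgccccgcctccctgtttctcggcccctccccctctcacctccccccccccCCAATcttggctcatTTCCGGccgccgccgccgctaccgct
Crebbp promoter, chr16:4213998-4214247, minus strand: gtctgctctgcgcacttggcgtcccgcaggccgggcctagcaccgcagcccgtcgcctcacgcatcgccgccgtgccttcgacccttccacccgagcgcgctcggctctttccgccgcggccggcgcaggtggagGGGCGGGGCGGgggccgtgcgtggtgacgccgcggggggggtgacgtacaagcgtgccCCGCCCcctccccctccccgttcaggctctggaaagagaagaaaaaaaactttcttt
Kat2a promoter, chr11:100712466-100712715, minus strand: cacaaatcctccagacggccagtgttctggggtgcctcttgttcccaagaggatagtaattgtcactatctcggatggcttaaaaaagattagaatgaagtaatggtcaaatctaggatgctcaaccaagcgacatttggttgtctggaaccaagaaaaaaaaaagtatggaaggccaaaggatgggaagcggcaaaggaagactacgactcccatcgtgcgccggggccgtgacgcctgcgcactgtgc

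The Sin3a promoter held 1 GC box at -87 to -82 and 2 NF-Y boxes at -60 to -56 and -33 to -29, counted from the start. The Ep300 promoter held 3 GC boxes, 2 NF-Y boxes and 1 ETS core, the Crebbp promoter held 3 GC boxes of which 2 overlapped by 1 base, and the Kat2a promoter held none of the 6 motifs. Over all 10 genes, a GC box was found in 6, an ETS core in 4, an NF-Y box in 3 and an NRF1 core in 1 (Hdac1), and the TATA box and the E-box in 0. Among 21904 promoter windows of the same length, 39.0% held a GC box, 13.7% an ETS core, 36.0% an NF-Y box, 3.06% an NRF1 core, 11.5% a TATA box and 6.52% an E-box. These matches describe the reference letters only.

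A peak within 1 kb of the start was present in all 6 libraries at 6 of the 10 genes, namely Sin3a, Ncor1, Hdac2, Hdac3, Kat2b and Ep300. Over all gene starts the share was 23.6% (5166 of 21911), and 54.2% had no peak in any library. Hdac1 had a peak in 5 libraries and lacked it in B6 replicate 2, the shortest list, and Sirt6 had one in 5 libraries and lacked it in F1 MB, the next shortest. Crebbp had a peak in B6 replicate 1 and F1 BM, the longest lists, and Kat2a in MSM replicate 1 alone. When every list was limited to the peaks with the highest significance that cover the same length, 4 genes kept a peak in all 6 libraries, beside 11.4% of all starts, and Hdac2 and Hdac3 did not.

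**Figure D1:**
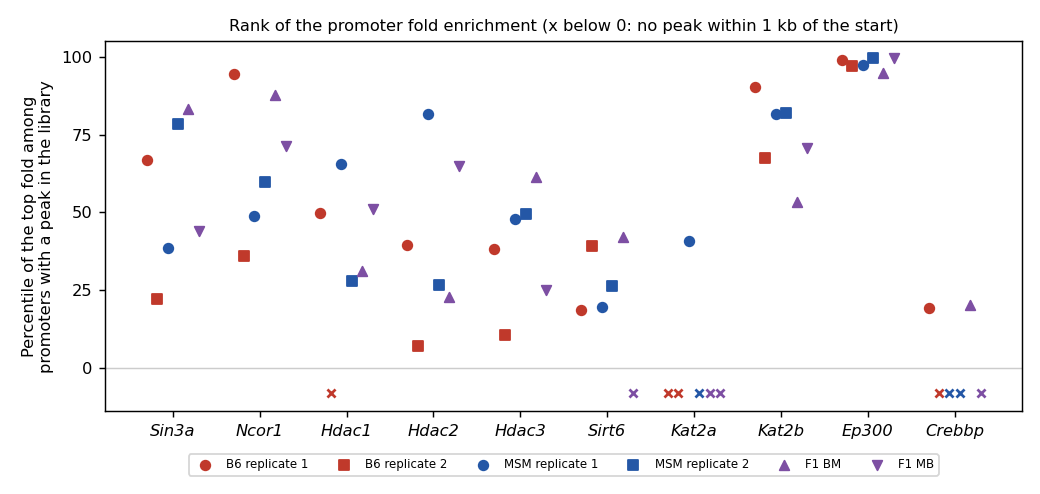
Rank of the promoter peak at each of the 10 genes in each of the 6 libraries. The vertical axis is the percentile of the highest fold enrichment within 1 kb of the start among all promoters with a peak in the same library, each symbol is 1 library, and a cross below 0 marks a library with no peak. Ep300 lay between 94.8 and 99.8 in all 6 libraries, while Sin3a and Hdac2 were spread widely between the replicates of both strains. Ncor1 was spread more between those of B6 (94.4 and 36.0) than of MSM (49.0 and 59.9). Hdac3 was spread between those of B6 (38.3 and 10.5) but not of MSM (47.9 and 49.4).

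Sin3a is the scaffold of the SIN3 corepressor complex, which carries Hdac1 and Hdac2 to promoters. The gene lies on chromosome 9 on the plus strand (57072040 to 57128366, ENSMUSG00000042557.14). Peaks no more than 500 bp apart were joined into a domain, the domain closest to the start was followed, and its upstream reach is how far its outer edge lay in front of the start. The upstream reach at Sin3a was 1796 and 703 bp in the B6 pair, 3836 and 3356 bp in the MSM pair, 1896 bp for F1 BM and 602 bp for F1 MB. Both MSM domains extended beyond both B6 domains by at least 1560 bp, and both hybrid domains ended short of both MSM domains. When peaks up to 1000 bp apart were joined, F1 BM reached 3854 bp, beyond both MSM domains. The mean was 1249.5 ± 773 bp for B6, against 3596 ± 339 bp for MSM (SD, n = 2 each), a difference of 2346.5 bp. No test is given, since the gene was selected on this value. All peaks in front of the start also lie within Gm10658, an antisense gene that begins at -74 bp and runs away from Sin3a, so they cannot be assigned to Sin3a alone.

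With each parental library left out in turn the difference was 1800 to 2893 bp, which the gap used for the choice holds to at least 1560 bp. It rested on the joining of peaks. With unjoined peaks the nearest peak reached 37, -71, -118 and -38 bp in the B6 pair and MSM replicates 1 and 2, which made the difference -61 bp. When all lists were limited to equal numbers of peaks, MSM replicate 1 reached 1903 bp, because the weak peak that bridged its domain was lost, and the call that both MSM libraries reach 200 bp beyond both B6 libraries no longer held.

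The individual peaks show what lies under the joined domains. A site from -3854 to -2619 bp (chr9:57068186-57069421) held peaks in both MSM and both hybrid libraries and in neither B6 library. Within it, MSM replicate 1 had peaks from -3836 to -3581 bp with a fold of 4.29 and from -3390 to -2619 bp with a fold of 6.69, and MSM replicate 2 had 1 from -3356 to -2831 bp with a fold of 5.12. F1 BM had 1 peak from -3854 to -2781 bp with a fold of 5.46, and F1 MB had 2, from -3854 to -3587 bp with a fold of 3.58 and from -3311 to -3044 bp with a fold of 3.61. In both hybrids these peaks were more than 500 bp from the next peak towards the gene, which is why the hybrid domains end closer to the start.

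Counted without any joining, the bases under peaks between 2 and 5 kb upstream of Sin3a were 0 and 0 in the B6 pair, 1295 and 883 in the MSM pair, 1074 for F1 BM and 536 for F1 MB. The window was set after the positions had been seen, with its near edge just outside the B6 replicate 1 peak that ends at -1796 bp. Limiting all lists to the same number of peaks left 0, 0, 1028, 883, 1074 and 536 bp in the same order, and limiting them to the same covered length left 0, 0, 772, 883, 1074 and 0 bp. The 0 of both B6 libraries in this window follows from how the window and the gene were chosen and is a description only. Of 5186 promoters with a domain in all 4 parental libraries, 0.328% (17) carried a peak in this window for both MSM and neither B6 library, among them Sin3a alone of the 7 genes with a domain, and 0.386% (20) had the opposite pattern, with 0 of the 7. At the 17 promoters, F1 BM had a peak in the window at 14 and F1 MB at 5, and both had one at 5.

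**Figure D2:**
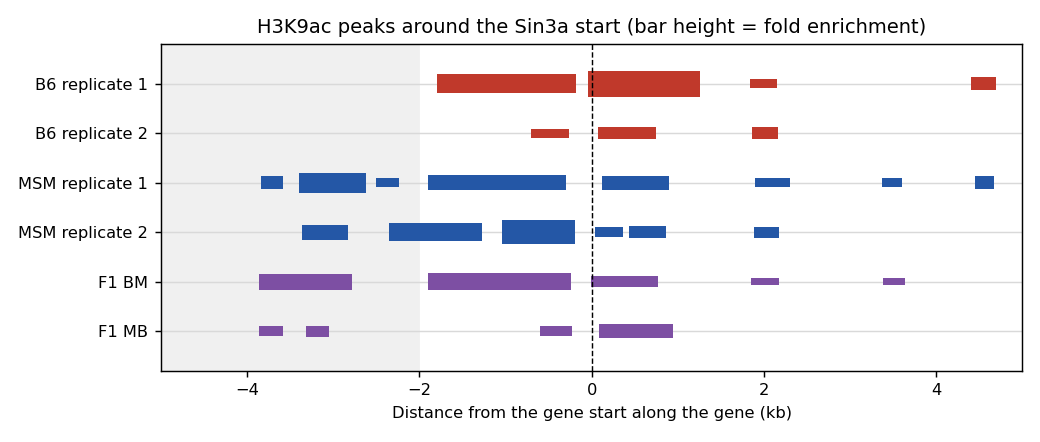
H3K9ac peaks from 5 kb before to 5 kb after the Sin3a start. The horizontal axis is the distance from the start along the gene in kb, each row is 1 library, each bar is 1 peak with a height in proportion to its fold enrichment, and the grey band is the window 2 to 5 kb upstream, which holds peaks in both MSM and both F1 libraries and in neither B6 library.

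The stretch under a peak in all 4 of those libraries was the 268-bp interval printed above, from -3311 to -3044 bp. It lies between the first and the second exon of both GENCODE transcripts of Gm10658 (chr9:57056630-57071966, minus strand). The interval had 41.8% GC and 0 CpG dinucleotides, was 0% repeat-masked and held none of the 6 motifs. Windows at the same distance from the other starts had a median GC of 44.0% (n = 21897), so this stretch stood at the 38.1st percentile. MSM reads were mapped to the B6 sequence, and whether sequence differences between the strains bear on the call here was not tested.

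Closer to the Sin3a start, some sites held peaks in all 6 libraries, though not over their full length. They ran from -2497 to -182 bp and from -37 to 1262 bp. Beyond -1903 bp the first was covered by MSM peaks alone, and in B6 replicate 2 and F1 MB it began at -703 and -602 bp. An intron site from 1840 to 2303 bp held peaks in 5 libraries, without F1 MB. A site from 3375 to 3636 bp had peaks in MSM replicate 1 and F1 BM only. Another from 4400 to 4696 bp had them in B6 replicate 1 and MSM replicate 1 only. Between the last peak before and the first peak after the start lay a stretch without a peak of 144 and 330 bp in the B6 pair, 410 and 233 bp in the MSM pair, 227 bp for F1 BM and 312 bp for F1 MB. In 5 libraries it covered the GC box and both NF-Y boxes of the printed promoter, and in B6 replicate 1 it covered all but the NF-Y box nearest the start. On the downstream side the domain ended at 1262 and 748 bp in the B6 pair, 898 and 862 bp in the MSM pair, 772 bp for F1 BM and 943 bp for F1 MB. The strains overlapped there, with a difference of -125 bp against a pooled within-strain SD of 258 bp. The difference was -654 bp with lists of equal numbers of peaks and -1249.5 bp with lists of equal covered length. In the latter setting both B6 libraries reached at least 200 bp further downstream than both MSM libraries, as they did at 9.24% of all promoters. There the MSM peaks after the start had been dropped, so the MSM domains followed lay in front of it and ended at -293 and -196 bp. With lists of equal numbers of peaks, the domain of MSM replicate 2 alone ended at -196 bp.

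The highest fold at the Sin3a start was 8.71 and 4.0 in the B6 pair, 5.21 and 8.18 in the MSM pair, 5.62 for F1 BM and 4.91 for F1 MB. The strains overlapped, and the means differed by 0.34 against a pooled SD of 2.78. The length under all Sin3a peaks was 3528 and 1423 bp in the B6 pair, 4539 and 3482 bp in the MSM pair, 4092 bp for F1 BM and 1770 bp for F1 MB. Here the longer B6 library lay above the lower MSM library by 46 bp, so the strains overlapped in total length while they did not in upstream reach.

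Among the 5186 promoters, Sin3a ranked 1 by the size of the upstream gap in favour of MSM, which is the value that chose it. The next were Arid5b with 1425 bp, Mpp6 with 957 bp and Amn1 with 952 bp. The promoters whose 6 upstream reaches were most like those of Sin3a were Sall1, Ppara, Fam160b1, Gcgr and Wbp2, with a root mean square difference of 851 to 929 bp over the 6 libraries among 4747 promoters with a domain in all of them. Even the closest, Sall1, differed at the MSM libraries, with reaches of 2243 and 1177 bp in the B6 pair and 2286 and 2245 bp in the MSM pair.

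Ncor1 is the nuclear receptor corepressor that holds Hdac3. It lies on chromosome 11 on the minus strand (62316426 to 62458541, ENSMUSG00000018501.17), and its start is 81 bp from that of Pigl on the other strand, so that a peak there belongs to both starts. The RefSeq start lies 1209 bp further inside the gene, and all distances here are from the GENCODE start. Its upstream reach was 648 and 651 bp in the B6 pair, 346 and 680 bp in the MSM pair, 683 bp for F1 BM and 441 bp for F1 MB. The downstream reach was 2376 and 1849 bp in B6, 1964 and 1971 bp in MSM, 2426 bp for F1 BM and 1797 bp for F1 MB. These were the longest downstream domains of the 10 genes, and the strains overlapped on both sides (exact permutation p = 1 for each, differences of -136.5 and -145 bp, n = 2 per strain). The fold was 14.3 in B6 replicate 1 and between 4.49 and 6.52 in the other 5 libraries.

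Domains at the deacetylases were between 267 bp (Hdac2 in F1 MB) and 962 bp (Sirt6 in F1 BM) wide. Those of Kat2a in MSM replicate 1 (284 bp) and Crebbp in B6 replicate 1 (462 bp) lay in the same range. Hdac1 and Hdac2 are the paired catalytic subunits of the SIN3, NuRD and CoREST complexes. Hdac2 (chromosome 10, plus strand, 36974544 to 37001889) had 1 peak in each library, covering 617 and 454 bp in the B6 pair, 540 and 757 bp in the MSM pair, 448 bp for F1 BM and 267 bp for F1 MB. Its fold was 6.35 and 3.28 in B6, 8.43 and 4.675 in MSM, 3.05 for F1 BM and 5.98 for F1 MB, and the strains overlapped (exact permutation p = 0.667, difference 1.74, pooled SD 2.43, n = 2 per strain). Hdac1 (chromosome 4, minus strand, 129516104 to 129542713) had 1 peak just inside the gene in 5 libraries and no peak in B6 replicate 2. This peak covered 369 bp in B6 replicate 1 and 300 and 301 bp in the MSM pair. It covered 319 bp for F1 BM and 318 bp for F1 MB. B6 replicate 1 alone had a second peak from -484 to -189 bp, which made its domain 892 bp wide.

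Hdac3 is the catalytic subunit of the NCoR complex, and Sirt6 is an NAD-dependent deacetylase known to act on H3K9ac itself. At Hdac3 (chromosome 18, minus strand, 37935844 to 37955016) the single peak of every library began 44 to 167 bp inside the gene and ended 421 to 650 bp inside it. Its fold was 6.27 and 3.49 in the B6 pair, 5.72 and 5.88 in the MSM pair, 4.28 for F1 BM and 4.20 for F1 MB. The folds of the strains overlapped, but as a percentile among the promoters of the same library they were 38.3 and 10.5 in B6 against 47.9 and 49.4 in MSM, a difference of 24.2 with a pooled SD of 14.0 (exact permutation p = 0.333, the smallest possible, n = 2 per strain). Sirt6 (chromosome 10, minus strand, 81621785 to 81627797) had the most even fold of the 7 genes with a domain in all 4 parental libraries, 4.85 and 4.60 in B6 and 4.37 and 4.65 in MSM, with 3.59 in F1 BM. On the other strand, Rell2 starts at -63 bp from the Hdac3 start and Ankrd24 at -743 bp from that of Sirt6.

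Among the acetyltransferases were the gene with the highest promoter fold in every library (Ep300) and the 2 genes with a promoter peak in the fewest libraries (Kat2a and Crebbp). Ep300 encodes p300, an acetyltransferase of many enhancers and promoters, on chromosome 15 (plus strand, 81585351 to 81652077, ENSMUSG00000055024.12). Its promoter fold was 18.5 and 9.76 in the B6 pair, 13.1 and 18.95 in the MSM pair, 7.66 for F1 BM and 14.6 for F1 MB. It ranked between the 94.8th and the 99.8th percentile of the promoters in every library, and the strains overlapped (exact permutation p = 0.667, difference 1.87, pooled SD 5.275, n = 2 per strain). Every library had 2 peaks, a small one that lay between -623 and -205 bp and a large one between -3 and 2164 bp. They were separated by a stretch of 201 and 391 bp without a peak in the B6 pair, 360 and 259 bp in the MSM pair, 400 bp for F1 BM and 378 bp for F1 MB, and this stretch held every motif match of the printed sequence in each library. The small peak lies over the start of 1110025M09Rik, a gene on the other strand, at -323 bp in the annotation, and the large one over the start of the miRNA gene Gm23880 at 782 bp, so neither can be assigned to Ep300 alone. The RefSeq start of Ep300 lies 863 bp further inside, under the large peak.

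The upstream reach of Ep300 was 603 and 623 bp in the B6 pair and 490 and 573 bp in the MSM pair, with 609 bp for F1 BM and 563 bp for F1 MB. At Kat2b it was 634 and 568 bp in B6, 472 and 541 bp in MSM, 538 bp for F1 BM and -19 bp for F1 MB. In both genes both B6 libraries lay above both MSM libraries, by 30 bp at Ep300 and 27 bp at Kat2b, far less than at Sin3a and in the other direction. This separation was lost at Ep300 with lists of equal numbers of peaks, with peaks of −log10 q of at least 5 alone and with unjoined peaks, with differences of -75.5, -26 and -37 bp, and it was kept with lists of equal covered length, with a difference of -386.5 bp. At Kat2b the difference became -345 bp with lists of equal size, where MSM replicate 1 reached -29 bp, and -397 bp with unjoined peaks, where the reaches were 634 and 148 bp in the B6 pair against -29 and 17 bp in the MSM pair. The main differences of -81.5 and -94.5 bp compare with pooled SDs of 42.7 and 47.7 bp (exact permutation p = 0.333 each, the smallest possible, n = 2 per strain). Over the 9 genes other than Sin3a and all measures, 33 such tests were made, 3 reached the smallest possible p, and the smallest p after Benjamini-Hochberg adjustment of these exact permutation tests was 1.

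**Figure D3:**
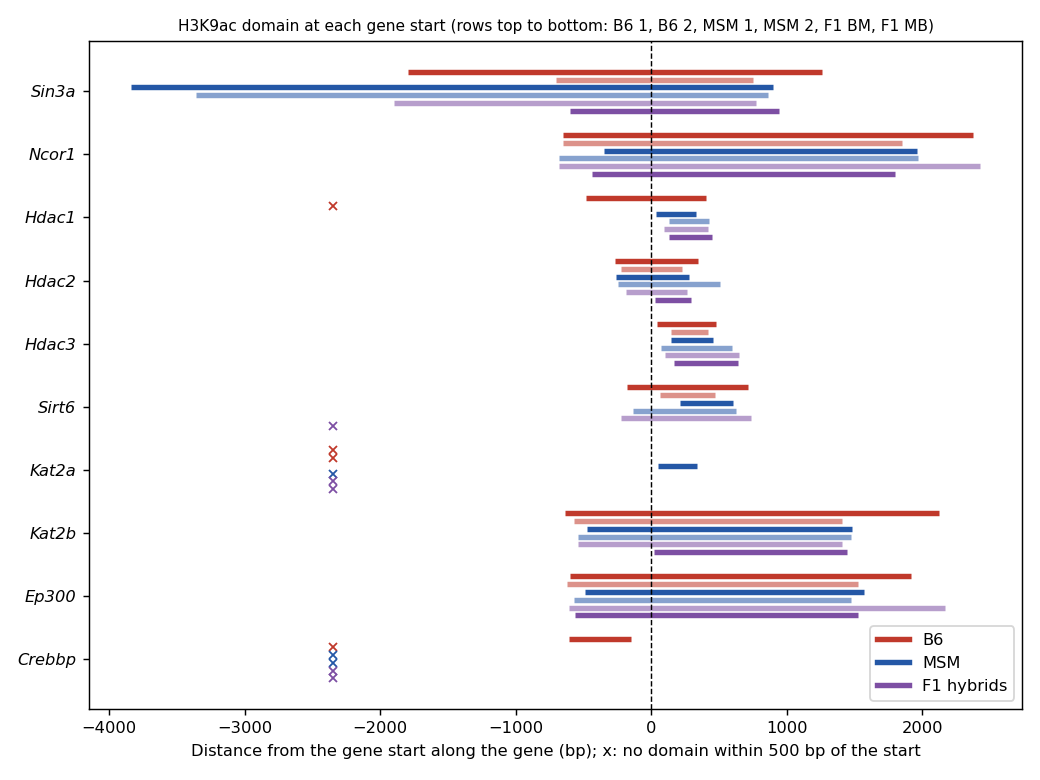
Extent of the H3K9ac domain at the start of each of the 10 genes. The horizontal axis is the distance from the start along the gene in bp, each line is the domain of 1 library, with replicate 2 and F1 BM in the paler shade, and a cross marks a library without a domain within 500 bp. Only at Sin3a did both MSM domains reach more than 200 bp beyond both B6 domains.

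Kat2b encodes PCAF, an acetyltransferase of H3K9 in the SAGA and ATAC complexes, on chromosome 17 (plus strand, 53566861 to 53672720, ENSMUSG00000000708.14). It carried 43 of the 127 peaks. Its promoter fold was 12.7 and 5.86 in the B6 pair, 8.41 and 8.70 in the MSM pair, 3.96 for F1 BM and 6.33 for F1 MB. What set it apart from the other 9 genes was peaks deep inside the gene: more than 5 kb from the start there were 8 and 2 in the B6 pair, 2 and 3 in the MSM pair, 7 for F1 BM and 3 for F1 MB, while the other 9 genes had 0 in every library. Of 1334 genes of at least 50 kb whose start was marked throughout the 6 libraries, 14.8% had such a peak in every library, as Kat2b did, and 55.2% had none in any, as Sin3a, Ncor1 and Ep300 did.

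All of these Kat2b peaks lay in introns, and their fold was low, between 2.26 and 5.13. A site 20475 to 20945 bp from the start had a peak in 5 libraries, without B6 replicate 2, and a site 76899 to 77280 bp from the start in 5, without MSM replicate 1. A site 60905 to 61340 bp from the start was shared by both B6 libraries, MSM replicate 2 and F1 BM, and sites at 87907 to 88270 bp and 88518 to 89495 bp had a peak in B6 replicate 1 alone. The longest lists, B6 replicate 1 and F1 BM, held the most of these peaks, while the other 4 lists held 2 or 3 each whatever their length, and the part of list length in these numbers was not tested. When all lists were limited to equal numbers of peaks, 0, 2, 0, 1, 1 and 2 remained in the B6 pair, MSM replicates 1 and 2, F1 BM and F1 MB.

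**Figure D4:**
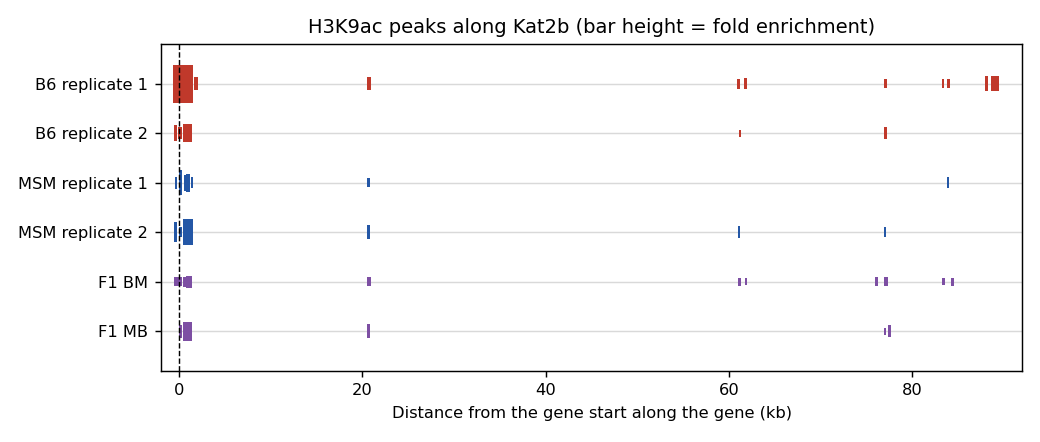
H3K9ac peaks along Kat2b. The horizontal axis is the distance from the start along the gene in kb, each row is 1 library and each bar is 1 peak with a height in proportion to its fold enrichment. Beyond the promoter, sites near 20 and 77 kb had a peak in 5 of 6 libraries each.

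Kat2a, which encodes GCN5 and is the close relative of Kat2b in the same complexes, had 1 peak in all (chromosome 11, minus strand, 100704746 to 100712465). It lay in MSM replicate 1, from 52 to 335 bp inside the gene, with a fold of 5.35 and a −log10 q of 8.24, and the other 5 libraries had none within the gene or 5 kb of its start. The Crebbp gene (chromosome 16, minus strand, 4081328 to 4213997) encodes CBP, the paralogue of p300. It had peaks from -609 to -148 bp with a fold of 4.15 and from 722 to 1027 bp with a fold of 4.89 in B6 replicate 1, and 1 from 779 to 1018 bp with a fold of 2.97 in F1 BM. The RefSeq start of Crebbp lies 593 bp further inside the gene, while these distances and the printed promoter are taken from the GENCODE start. With 0 and 0 peaks in MSM and 2 and 0 in B6, the strains overlapped.

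The 1 kb around the Crebbp start was the richest in CpG of the 10 genes, with 75.4% GC and an observed over expected CpG ratio of 1.04, at the 99.1st percentile of 21895 promoters. The ratio was between 0.541 at Sirt6 and 0.85 at Kat2b for the other 9. The median over the 10 genes was 0.734 against 0.552 over all promoters. Of 968 promoters with at least 70% GC, 38.5% had a peak in all 6 libraries and 30.1% in none, close to the 40.1% and 29.9% among 5328 promoters with 60 to 70% GC, and against 26.0% and 45.9% among the 8513 with 50 to 60%. The Hdac2 promoter, at 70.8% GC, had a peak in all 6 libraries.

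Across the 7 genes with a domain in all 4 parental libraries, 1 (Sin3a) reached at least 200 bp further upstream in MSM. The share over all promoters was 0.829% (43 of 5186). Sin3a was chosen on this value, so its count follows from that choice, and no other gene of the 7 was called. In B6, 0 reached further upstream, beside 4.8% (249). On the downstream side 0 of 7 reached further in MSM and 0 in B6, beside 2.16% (112) and 5.65% (293). For the promoter fold, 0 of 7 were higher in both MSM than in both B6 libraries and 0 the other way, beside 8.59% (479) and 11.2% (623) of 5579 promoters. The median difference in upstream reach, MSM minus B6, was -81.5 bp over the 7 genes and -26 bp over all promoters, and 2 of the 7 differences were above 0, namely those of Sin3a and Hdac2 (5.5 bp). The median log2 ratio of the fold was 0.15 over the 7 genes and -0.03 over all promoters.

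These counts depended on which B6 library was used. Without B6 replicate 1, the shorter B6 list alone stood for the strain and 6 of 7 genes had a higher fold in MSM (Sin3a, Ncor1, Hdac2, Hdac3, Kat2b and Ep300), beside 63.5% of all promoters. Without B6 replicate 2, 6 of 8 genes had a higher fold in B6 (Sin3a, Ncor1, Hdac1, Hdac3, Sirt6 and Kat2b), beside 66.9% of all promoters. In that setting 4 of 8 reached further downstream in B6 (Sin3a, Ncor1, Kat2b and Ep300), beside 30.1%. For the fold, most promoters moved the same way in these settings. Sin3a, chosen on a gap between all 4 parental libraries, had to stay further upstream in MSM when 1 of them was left out, so this says nothing of its stability, and the share over all promoters was 15.4% without B6 replicate 1 and 1.24% without B6 replicate 2.

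A wider list of 95 genes of the same pathway, which includes the 10, was read in the same way. A promoter peak in all 6 libraries was found at 39 (41.1%) of them, and at 33 of the 85 outside the 10 genes (38.8%), beside 23.6% of all starts, with 6 of 14 acetyltransferases, 7 of 18 deacetylases, 8 of 16 SIN3 complex genes, 7 of 18 genes of the NCoR, CoREST and NuRD complexes, 8 of 23 other acetyltransferase complex subunits and 3 of 6 readers of acetylated lysine. Of 37 with a domain in all parental libraries, Sin3a, which was chosen on this value, alone reached further upstream in MSM. Ncoa3, a nuclear receptor coactivator, alone reached further upstream in B6. The shares over all promoters were 0.829% and 4.8%. Downstream, 0 differed in either direction, beside 2.16% and 5.65% of all promoters. The upstream reach of Ncoa3 was 632 and 456 bp in the B6 pair, -14 and -7 bp in the MSM pair, 372 bp for F1 BM and -13 bp for F1 MB. Of 42 with a promoter fold in all parental libraries, Hdac5, Brpf1, Brd2 and Yeats4 were higher in both MSM libraries and Kat5, Sirt3 and Jade2 in both B6 libraries. Such shares, 4 and 3 of 42, are near the 8.59% and 11.2% over all promoters and are no result about the list. These 7 are named after their values were seen.

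The peaks nearest the limit of the gene rule were 1146 bp inside it at Sin3a and, outside it, 454 bp away at Hdac3 and 506 bp away at Kat2a.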

How the data were processed

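The authors fixed liver, precipitated H3K9ac chromatin and sequenced paired reads. Their methods name Bowtie 2 for mapping to mm10, while the submitters' processing notes list Trim Galore, HISAT2, SAMtools and MACS2 without versions. Whether input served as control is not given in the sources used here. Each library had its own deposited list, so replicates were not pooled. For each peak the deposited lists held a fold enrichment (linear ratio), −log10 of the p-value and q-value as the authors' caller wrote them, and a score derived from the q-value that was not used. The lowest −log10 q was 1.30 to 1.35. Since all reads were placed on the B6 genome, MSM reads at variant sites may have gone unmapped.

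Positions were compared with Python 3.11.15 and numpy 2.4.6, and figures drawn with matplotlib 3.10.9. One start per protein-coding symbol came from GENCODE M21. A peak was at a start when at least 1 bp fell within 1 kb of it. Peaks up to 500 bp apart were joined, the domain nearest the start within 500 bp was taken, and a strain reached further when both its libraries exceeded both of the other by 200 bp. Fold percentiles were taken among promoters with a peak in the same library. Differences of single values were tested by exact permutation (two-sided) of the strain labels among the 4 parental libraries, with 6 assignments and a smallest p of 0.333, so that none could pass 0.05. Each p is the share of assignments with a difference in strain means at least as large as the one observed, and concerns these 4 libraries only. Functions were tested on simulated data. All 10 genes are named, with called genes of a 95-gene pathway list, the 3 promoters next to Sin3a by gap, the 5 most like it, and neighbours within 1 kb. The members and lists were chosen with earlier results of these data known. Alternatives were equal list sizes, a −log10 q of at least 5, other joining distances, margins, windows and overlaps, leaving out each parental library, and the replicate number as a block. RefSeq starts, matched for 8 of the 10 genes, were added after seeing the data, as was the window 2 to 5 kb upstream of Sin3a.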

Additional observations from a re-analysis of the deposited data

How the results depend on the processing

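The single gene reaching further upstream in MSM (Sin3a) was lost, leaving 0, with all lists limited to 11619 peaks, with only peaks of −log10 q of at least 5, and with no joining of peaks. Without joining, the Sin3a difference in upstream reach of 2346.5 bp turned to -61 bp, and with lists of 11619 peaks it was 1380 bp. The bases under peaks 2 to 5 kb upstream of Sin3a, 1089 more in MSM, were 827.5 more with the same covered length in every list (6.28 Mb) and 883 to 1295 more when each parental library was left out in turn, and this window was chosen after seeing the data. Leaving out each library in turn gave 0 to 1 genes further upstream in B6 (Hdac1 without B6 replicate 2, beside 26.0% of all promoters, and Ncor1 without MSM replicate 2, beside 8.43%), 0 to 4 further downstream in B6, 0 to 6 with a higher fold in MSM and 0 to 6 in B6. With the same covered length, 2 of 4 genes with a domain (Sin3a and Kat2b) reached further downstream in B6, beside 9.24%. In this setting the domain followed ended before the start in both MSM libraries at Sin3a and in MSM replicate 2 at Kat2b. By percentile within the library 1 gene (Hdac3) had a higher fold in MSM, beside 16.7%. With replicate numbers as a replicate block, 1 gene (Hdac2) had a higher fold in MSM, beside 15.2%. In that setting 1 gene (Sin3a, chosen on its upstream gap) reached further upstream in MSM, beside 1.25%. The numbers do not come from shared animals, and deviations of same-numbered libraries were hardly correlated over promoters (0.058 for upstream reach over 5186, -0.023 for log2 fold over 5579). Of 157 recomputed single values of 21 results, 145 moved by less than the spread between replicates (pooled within-strain SD) and 11 moved further. The reach at Sin3a without joining turned its direction as given above. With 2 libraries per strain, leaving 1 out cannot move a difference by more than this spread. Values with a library left out were therefore bound to count among the 145 and say nothing of stability in size. Of the 157 values, the sign stayed in 134, turned in 22 and came to exactly 0 in 1, and 19 of the 22 turned when a library was left out. The lists hold no depth, so absence of a peak at Kat2a, Crebbp, Hdac1 or Sirt6 does not show absence of acetylation. With 2 libraries per strain, no single difference could pass 0.05 in the exact permutation test, whose smallest p is 0.333. The hybrids, with 1 library each, were not tested.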
